A study of Homo sapiens with 6 samples.

Results

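Described here are 9 microRNAs of the primate-specific cluster on chromosome 19 (C19MC) that lay at or near the lower limit of the measurement in every control siRNA library of the human cell line RMUG-S-ip1, from a mucinous cancer of the ovary. They are miR-498, miR-516b-5p, miR-517a-3p, miR-518b, miR-518c-3p, miR-518e-3p, miR-519b-3p, miR-519c-3p and miR-524-5p, and they make up 9 of the 177 miRNA rows that the authors named, out of 800 miRNA rows measured. The cells received an siRNA against PRKRA (siPRKRA, 3 libraries) or a control siRNA (3 libraries) by RNAiMAX transfection in the same serum-containing medium, and 100 ng of total RNA per sample went into the NanoString nCounter miRNA assay. In this assay a colour-coded probe is counted for each miRNA without amplification. The product of PRKRA is PACT, which binds double-stranded RNA and works beside Dicer, and the comparison addressed how miRNA profiles change when it is silenced. The PRKRA mRNA was not analysed here, and the labels do not say whether the 3 samples of a group came from separate cultures or whether the siRNA was a single sequence or a pool. The members were chosen by their values in the control siRNA libraries and by being named in the authors' comparison, in which all 177 rows were above the floor in at least 1 siPRKRA library. Presence in siPRKRA cells was therefore partly fixed by the choice, and the siPRKRA and control values of the 9 miRNAs are given as a description with no test.

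C19MC miRNAs are processed from a long, paternally expressed primary transcript and are abundant in placenta and in early embryonic cells, while most adult epithelia make little of them. Drosha and Dicer cut each hairpin into a 5p and a 3p arm, and the arm that is kept binds target mRNAs mainly through its seed, the bases near its 5′ end. Many hairpins of the cluster arose by duplication, so that their mature miRNAs resemble each other closely and several share a seed. Of the cell type markers, 5 of 5 epithelial miRNAs of the miR-200 family were named in the files, and 3 of them were above the floor in all 6 libraries. The values of all 5 summed to 5361, 4329 and 5211 in siPRKRA libraries, against 6938, 6574 and 5872 in control libraries. The sum hides miR-200a-3p and miR-429, which were at the floor in every control library (1.5, 1.53 and 1.32). In siPRKRA replicates 1, 2 and 3 they had 17.2, 1 and 8.86 (miR-200a-3p) and 6.55, 1.09 and 3.23 (miR-429). None of the 3 mesenchymal markers looked up was among the named rows. Of 8 pluripotent cell markers of the miR-302 and miR-371 to miR-373 clusters 2 were named, and they summed to 27.4, 131 and 47.8 in siPRKRA libraries, against 138, 188 and 158.8 in control libraries. Of 4 blood or endothelial markers 2 were named, and only 1 of these was above the floor in all 6 libraries. The sums of the 2 were 162 to 244 in siPRKRA libraries, against 235 to 365 in control libraries. The part of these lists in the values of the 9 miRNAs was not tested.

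The mature sequences are shown because shared seeds and near-identical relatives decide how the values below can be read. They are RefSeq sequences (GRCh38.p14), written 5′ to 3′ with the seed (bases 2 to 8) in capitals. The authors' table gives miR-498 without an arm; the sequence shown is that of the 5p arm, which carried this name before the other arm was annotated.
miR-518b: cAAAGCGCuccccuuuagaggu
miR-518c-3p: cAAAGCGCuucucuuuagagugu
miR-518e-3p: aAAGCGCUucccuucagagug
miR-519b-3p: aAAGUGCAuccuuuuagagguu
miR-519c-3p: aAAGUGCAucuuuuuagaggau
miR-517a-3p: aUCGUGCAucccuuuagagugu
miR-498: uUUCAAGCcagggggcguuuuuc
miR-524-5p: cUACAAAGggaagcacuuucuc
miR-516b-5p: aUCUGGAGguaagaagcacuuu
The 9 sequences held 7 different seeds. miR-518b and miR-518c-3p shared a seed and differed by 3 edits (substitutions, insertions or deletions) over their length. miR-519b-3p and miR-519c-3p also shared a seed and differed by 2 edits. The seed of miR-518e-3p is that of the other 2 members of its name shifted by 1 base, as the sequence starts 1 base later. The 3 members of the 5p kind (miR-498, miR-524-5p and miR-516b-5p) lay at least 10 edits from each other and from every 3p member.

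A row that reads close relatives of 3 members was present in control cells. miR-517c-3p and miR-519a-3p were read by 1 shared row, which had more than 46 counts above background in every library. The row cannot tell these miRNAs apart, so the presence of each of them is not shown.
miR-517c-3p: aUCGUGCAuccuuuuagagugu
miR-519a-3p: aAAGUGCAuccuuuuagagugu
miR-517c-3p lay 1 edit from miR-517a-3p and miR-519a-3p lay 2 edits from miR-519b-3p and 3 from miR-519c-3p, each with the same seed as its relative. The mature sequence of miR-517a-3p is also that of miR-517b-3p, from the hairpin MIR517B, so its row cannot tell these loci apart. miR-516b-5p likewise comes from a pair of loci, MIR516B1 and MIR516B2. How far a probe counts a near-identical relative was not tested. The other 6 members lay 4 to 9 edits from the nearest sequence matched to a row present in control cells.

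The deposited values decide what can be seen this close to the limit. Within a library each value is a count above a background, multiplied by 1 factor for that library, and low rows are set to a floor, with 0 to 7 rows of a library slightly below it. The floor was 1, 1.09 and 1 in siPRKRA replicates 1, 2 and 3, and 1.5, 1.53 and 1.32 in control siRNA replicates 1, 2 and 3. Rows at or below the floor are counted as 0 here, although the floor equals 4.33 counts in siPRKRA replicate 1, 2.13 in siPRKRA replicate 3 and about 1 in the other libraries, so a row with fewer counts than that cannot be told from 0. The factor, which is the value of 1 count, was 0.231, 1.09 and 0.469 in siPRKRA replicates 1, 2 and 3, and 1.496, 1.526 and 1.315 in control siRNA replicates 1, 2 and 3. Summed over miRNA rows, siPRKRA libraries held 305261, 228544 and 142681 counts above background (replicates 1, 2 and 3), and control libraries held 53137, 51641 and 56193. In siPRKRA replicate 2, miR-4454 and miR-720 took 72.4% of these counts, and 63158 remained for all other rows, against 292822 and 134717 in siPRKRA replicates 1 and 3 and 47237 to 52667 in control libraries. The 5 mRNA rows of the panel gave another order: their geometric mean was 7039, 3900 and 4100 counts in siPRKRA replicates 1, 2 and 3, against 1099, 947 and 1316 in control siRNA replicates 1, 2 and 3. By that measure siPRKRA replicate 2 was close to siPRKRA replicate 3, so how its counts compare with those of a control library depends on the rows used. The 5 graded control probes of the panel, relative to their mean over all libraries, gave 0.916, 0.846 and 1.15 in siPRKRA replicates 1, 2 and 3. In control siRNA replicates 1, 2 and 3 they gave 0.985, 1.12 and 1.01. These probes thus did not show the difference between the groups seen in the miRNA and mRNA rows. The size of the subtracted background is not given in the sources used here.

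In control siRNA libraries 25 of the 27 values of the 9 miRNAs were at the floor. The other values were 1.69 for miR-519c-3p in control siRNA replicate 2, which is 1.11 counts above background, and 1 for miR-498 in the same library, which is less than 1 count. In siPRKRA libraries 9, 6 and 7 of the 9 miRNAs were above the floor in replicates 1, 2 and 3, against 0, 1 and 0 in control siRNA replicates 1, 2 and 3. Above the floor in all 3 siPRKRA libraries were 6 miRNAs, in 2 of them 1 miRNA (miR-518e-3p) and in 1 of them 2 miRNAs (miR-516b-5p and miR-519b-3p). Among all 45 named rows near the floor (under 2 counts above background) in every control library, 15 were above it in all siPRKRA libraries, which is 33.3%. Over all 177 named rows the share was 8.47% and over all 800 rows 1.88%. These shares are printed for scale, since the rows' naming used the same values.

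**Figure D1:**
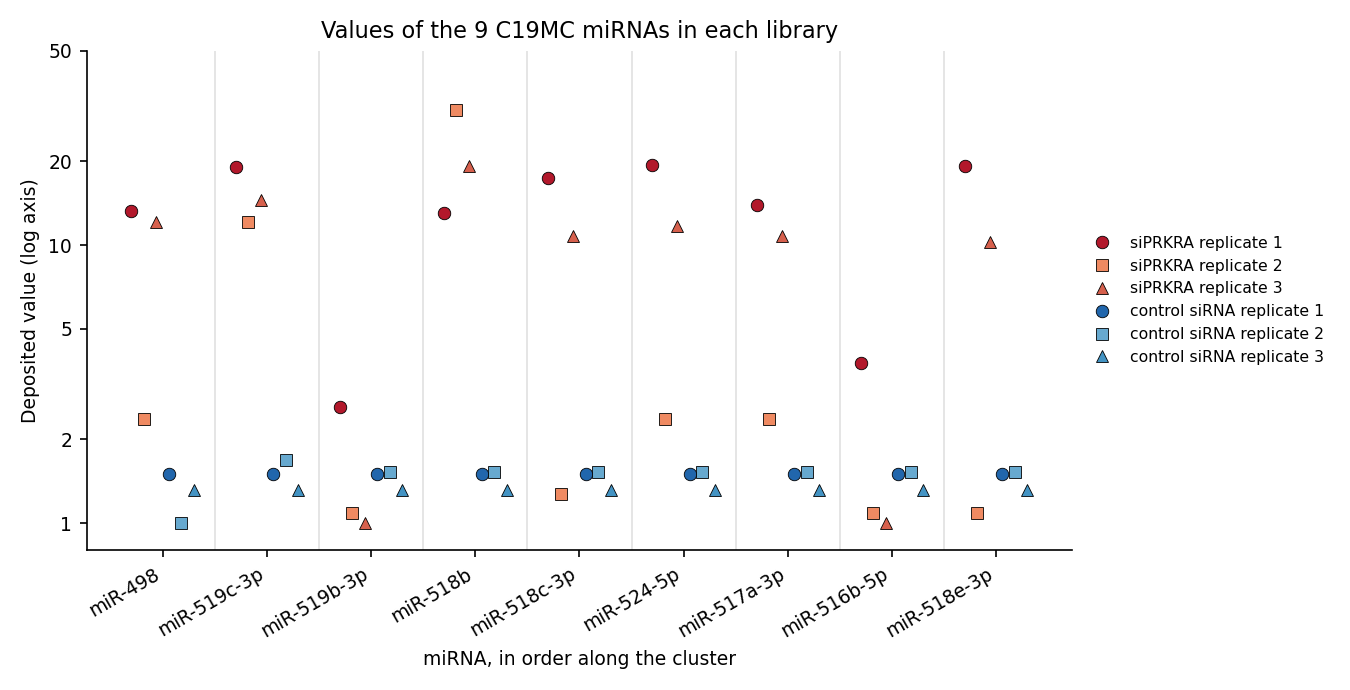
Deposited value (log axis, in the authors' scaled units) of each of the 9 miRNAs in each library, ordered by position along the cluster; every point is 1 library, siPRKRA in red tones left of control siRNA in blue tones. miR-518b and miR-519c-3p are above 12 in all 3 siPRKRA libraries, 5 others are above 10 in siPRKRA replicates 1 and 3 and at or under 2.36 in replicate 2, and all control points lie between 1 and 1.69.

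Of the miR-518 members, miR-518b, which has been reported to repress the small GTPase RAP1B, had the highest mean over siPRKRA libraries but the lowest value of the 3 in siPRKRA replicate 1. Its values were 13.0, 30.6 and 19.2 in siPRKRA replicates 1, 2 and 3, against 1.5, 1.53 and 1.32 in control siRNA replicates 1, 2 and 3. It was the only one of the 9 with its highest value in siPRKRA replicate 2, the groups did not overlap, and it averaged 20.9 ± 8.91 (SD, n = 3) in siPRKRA libraries. In counts above background it had 56.3, 28.2 and 40.9 in siPRKRA replicates 1, 2 and 3 and 0 in each control library.
miR-518c-3p, known for a target site in the steroid enzyme HSD17B1 in placenta, had 17.4, 1.27 and 10.7 in siPRKRA libraries, against 1.5, 1.53 and 1.32 in control libraries. The groups overlapped, because siPRKRA replicate 2, at 1.17 counts above background, was below all control values. miR-518e-3p had 19.3, 1.09 and 10.3 in siPRKRA libraries and the same floor values as its relatives in control libraries. It was at the floor in siPRKRA replicate 2 and had 83.4 and 21.9 counts above background in replicates 1 and 3.

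Of the miR-519 members, which have been studied as repressors of HuR, HIF1A and the drug transporter ABCG2, only miR-519c-3p was above the floor in all siPRKRA libraries. Its values were 19.02, 12.1 and 14.5 in siPRKRA replicates 1, 2 and 3, against 1.5, 1.69 and 1.32 in control siRNA replicates 1, 2 and 3. The groups did not overlap, and its mean of 15.2 ± 3.50 (SD, n = 3) in siPRKRA libraries had the smallest spread relative to its level among the 7 members above a mean of 2. It stood at 12.6%, 12.7% and 11.8% of the counts of the shared miR-517c-3p and miR-519a-3p row in siPRKRA replicates 1, 2 and 3, and at 0%, 2.41% and 0% in control siRNA replicates 1, 2 and 3. In the control libraries 3 counts above background would have made 3.66%, 6.51% and 4.81% of that row. These shares are of counts above an unknown background.
miR-519b-3p, in contrast, had 2.62, 1.09 and 1 in siPRKRA libraries, against 1.5, 1.53 and 1.32 in control libraries. Only siPRKRA replicate 1 was above its floor, at 11.4 counts above background or 1.74% of the shared row, and the groups overlapped. The values of these 2 members thus went apart although they share a seed and differ by 2 edits.

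miR-517a-3p, a placental miRNA found in trophoblast exosomes, had 13.9, 2.36 and 10.7 in siPRKRA replicates 1, 2 and 3, against 1.5, 1.53 and 1.32 in control siRNA replicates 1, 2 and 3. The groups did not overlap, but siPRKRA replicate 2 was only 2.17 counts above background. Relative to the shared row that holds its 1-edit relative miR-517c-3p, it stood at 9.27%, 2.46% and 8.74% in siPRKRA libraries and at 0% in each control library, where the shared row itself had 46.1 to 82.1 counts. In control siRNA replicates 1, 2 and 3 a count of 3 would have been 3.66%, 6.51% and 4.81% of that row, and in siPRKRA replicate 2 it would have been 3.40%, so that library could not be told from the control libraries by this share.

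Among the 5p members, miR-498, reported to lower the telomerase component TERT in ovarian cancer cells given vitamin D, had 13.2, 2.36 and 12.2 in siPRKRA libraries, against 1.5, 1 and 1.32 in control libraries. miR-524-5p, reported to repress the Notch pathway genes JAG1 and HES1 in glioma, had 19.5, 2.36 and 11.7 in siPRKRA libraries, against 1.5, 1.53 and 1.32 in control libraries. Neither overlapped between the groups, and both were 2.17 counts above background in siPRKRA replicate 2. miR-516b-5p had 3.78, 1.09 and 1 in siPRKRA libraries, against 1.5, 1.53 and 1.32 in control libraries. It was above the floor in siPRKRA replicate 1 alone, with 16.4 counts above background, although a pair of hairpins can make it.

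In all, 5 of the 9 miRNAs did not overlap between the groups, each with all siPRKRA values above the control values. Of the 198 rows above the floor in at least 1 library, 16.7% showed the same. The choice of members used this contrast, so nothing is read from that count. Over the 9 miRNAs the difference of mean log2(value + 1), siPRKRA minus control siRNA, had a median of 1.78 and ran from 0.015 for miR-519b-3p to 3.08 for miR-518b, beside a median of 0.15 over the 198 rows. Without siPRKRA replicate 1 the difference was -0.26 for both miR-516b-5p and miR-519b-3p, and without control siRNA replicate 3 it was -0.024 for miR-519b-3p, so the direction of these 2 miRNAs rests on single libraries. For the other 36 named rows near the floor in all control libraries the median was 1.17. A row at the floor in all 6 libraries has a difference of -0.27, because the siPRKRA floors are lower. With each control value at the limit of 3 counts the median over the members was 0.65, and 7 of the 9 differences were above 0. The sign itself rests on the unknown background: with 25 counts of background added back to every row before the factor, the median was -0.54 over the 9 miRNAs, -0.41 over the 198 rows and -1.46 for a row at background throughout. All 9 miRNAs were then below 0. All 9 were above the row at background, which the choice of members largely fixed, so nothing is read from it.

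The 9 miRNAs were set beside the rest of the cluster in each library. Their counts above background summed to 527, 47.0 and 190.2 in siPRKRA replicates 1, 2 and 3, against 0, 1.11 and 0 in control siRNA replicates 1, 2 and 3. The 8 C19MC rows present in control cells (miR-512-3p, miR-512-5p, miR-515-5p, miR-520a-5p, miR-521, miR-522-3p, miR-1323 and the shared row) summed to 3917, 530 and 1677 counts in siPRKRA libraries and to 445, 307 and 405 in control libraries. The members stood at 13.5%, 8.87% and 11.3% of those rows in siPRKRA libraries and at 0%, 0.361% and 0% in control libraries. The limit of 3 counts applies to each of the 9 miRNAs, so the control shares are not a measured absence. In siPRKRA replicate 2, whose 530 counts came closest to the control libraries, 7 of the 9 miRNAs had fewer than 3 counts above background. The exceptions were miR-518b with 28.2 and miR-519c-3p with 11.2 counts, and these made up most of the library's 47.0. At 10 or more counts above background, 9, 2 and 7 of the 9 were present in siPRKRA replicates 1, 2 and 3 and none in a control library. Counts summed over the miRNA rows differ between the groups, while the graded control probes do not separate them, and the subtracted background is unknown. The part of these in the values of the 9 miRNAs was not tested.

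**Figure D2:**
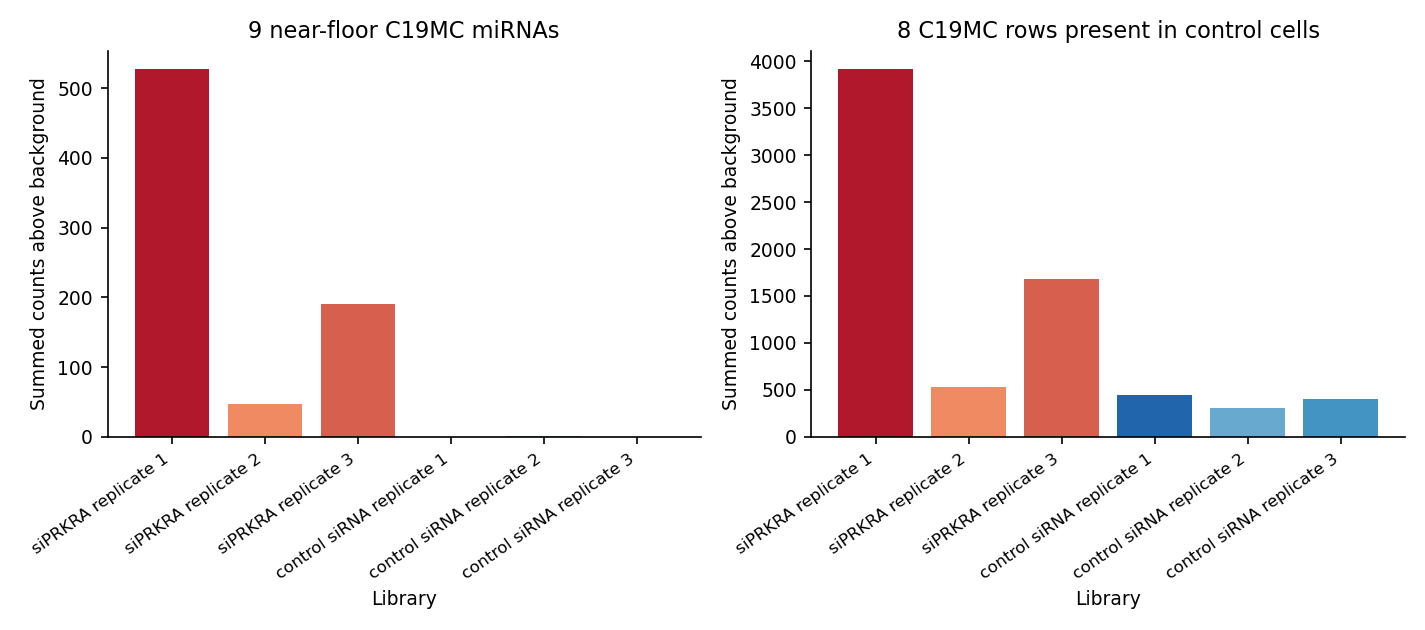
Counts above background (linear axes that start at 0) in each library, summed over the 9 near-floor miRNAs on the left and over the 8 C19MC rows present in control cells on the right; siPRKRA libraries are in red tones left of control siRNA libraries in blue tones. On the right siPRKRA replicate 2, at 530, is near the control libraries (307 to 445), and on the left it holds 47.0 where the control libraries hold 0 to 1.11. The 9 miRNAs were chosen by these low control values, so the contrast on the left is a description. The part of each library's total counts in it was not tested.

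The order of the 9 members in siPRKRA replicate 1 differed from that in replicates 2 and 3, which were alike in order. Spearman correlations over the members were 0.21 for replicates 1 and 2, 0.30 for 1 and 3 and 0.96 for 2 and 3. Pearson correlations of log2(value + 1) were 0.31, 0.93 and 0.58 for the same pairs. In replicate 2, 7 of the 9 had fewer than 3 counts above background. miR-524-5p was highest in siPRKRA replicate 1, with miR-518e-3p and miR-519c-3p next, while miR-518b was highest in replicates 2 and 3 and stood in place 7 of 9 in replicate 1. miR-516b-5p and miR-519b-3p were the lowest in replicates 1 and 3. Relative to siPRKRA replicate 1, the value in replicate 2 was 2.35 times as high for miR-518b and 0.638 times for miR-519c-3p, and between 0.073 and 0.178 times for the 4 others above the floor in replicate 2. The remaining 3 were at the floor there and have no measured ratio. In replicate 3 the value was 1.48 times that of replicate 1 for miR-518b and between 0.534 and 0.918 times for the 6 others above the floor in replicate 3. miR-516b-5p and miR-519b-3p were at the floor there and have no measured ratio.

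The rule took the listed miRNAs, and 5 more named C19MC rows were near the floor in all control libraries. Of these, miR-515-3p was the highest, with 41.4, 16.5 and 28.1 in siPRKRA replicates 1, 2 and 3, against 1.5, 1.53 and 1.32 in control siRNA replicates 1, 2 and 3. miR-519d ran against most members, with 1, 25.2 and 6.99 in siPRKRA libraries, against 1, 1.53 and 1.32 in control libraries. It was at the floor in siPRKRA replicate 1, the library with the most counts above background. miR-520b, miR-525-5p and miR-526b-5p stayed at or below 5.11 in siPRKRA libraries and were at the floor in siPRKRA replicate 2. On the other side of the limit, the lowest control values of a C19MC row present in control cells were 21.5 for miR-521 and 22.9 for miR-520a-5p, both in control siRNA replicate 3.

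Presence in siPRKRA replicate 1 was shared by 43 of the 45 named rows near the floor in control cells, whether or not they belonged to C19MC. Every named row was above the floor in at least 1 siPRKRA library, so this share was partly fixed by the naming. Of the 623 rows without a name, 21 were above the floor in any library. All 9 members and all 31 named rows outside C19MC were above the floor there, as were 3 of the 5 other C19MC rows. In siPRKRA replicate 2 the numbers were 6 of 9, 9 of 31 and 2 of 5, and in replicate 3 they were 7 of 9, 22 of 31 and 5 of 5. Above the floor in all 3 siPRKRA libraries were 6 of 9 members (66.7%), 8 of 31 rows outside C19MC (25.8%) and 1 of 5 other C19MC rows (20%). At 10 counts above background in siPRKRA replicate 2, 2 of 9 members and 7 of 31 rows outside C19MC remained, so the larger share of members rested on miR-498, miR-517a-3p, miR-518c-3p and miR-524-5p at 1.17 to 2.17 counts above background.

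**Figure D3:**
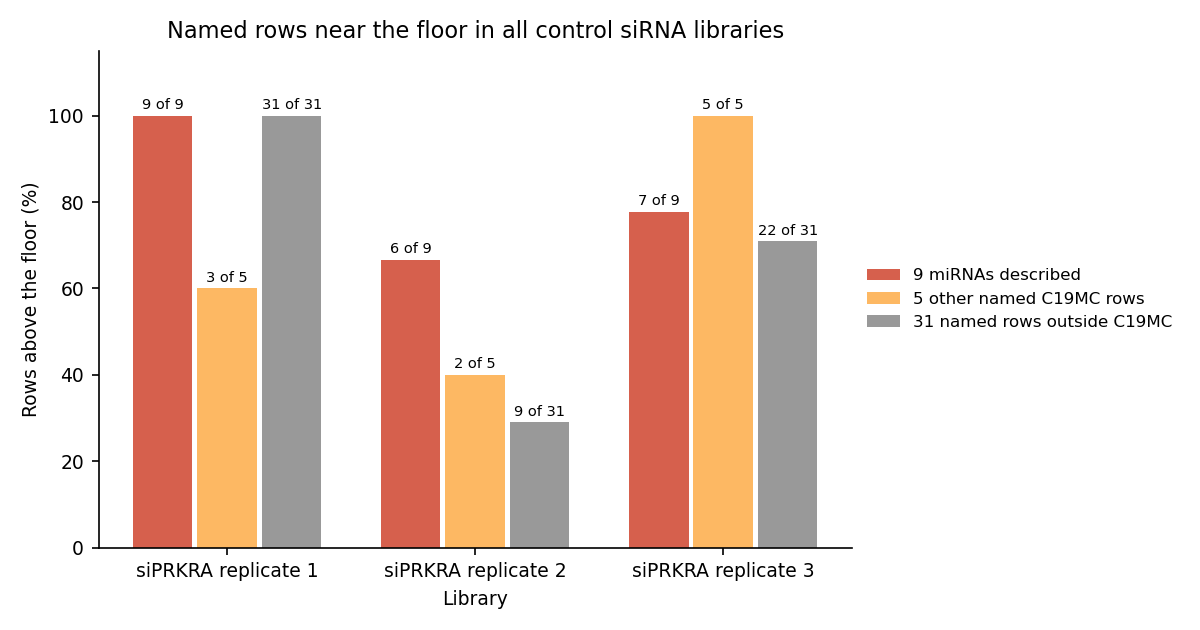
Share of rows above the floor (vertical axis, percent) in each siPRKRA library for 3 sets of named rows that were near the floor in all control siRNA libraries; the number above each bar gives the rows. Bars for the 9 miRNAs and the 31 rows outside C19MC reach 100% in siPRKRA replicate 1, and in replicate 2 they stand at 6 of 9 and 9 of 31.

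The members were spread through the cluster and not gathered at one end. All lie on the plus strand of chromosome 19 (GRCh38.p14), each inside the hairpin gene of its name. miR-498 is at chr19:53674230-53674252, miR-519c-3p at chr19:53686522-53686543, miR-519b-3p at chr19:53695263-53695284 and miR-518b at chr19:53702787-53702808. miR-518c-3p is at chr19:53708796-53708818, miR-524-5p at chr19:53711017-53711038 and miR-517a-3p at chr19:53712321-53712342. miR-516b-5p is at chr19:53725457-53725478 and again at chr19:53736860-53736881, and miR-518e-3p lies between them at chr19:53729891-53729911. The 46 annotated hairpins of the cluster span 95.8 kb, and the 10 member hairpins lie between 7.6 and 70.2 kb from its first hairpin. The 8 rows present in control cells can come from 12 hairpins, which lie on both sides of the member hairpins and among them, from 0 to 95.7 kb. A row with several possible hairpins cannot tell which of them made its signal. MIR515-2, MIR517C and the hairpin at 95.7 kb belong to such rows. The nearest of these possible hairpins was 1.46 kb away for MIR519C (MIR515-2) and 2.25 kb away for MIR498 (MIR1323). The largest of these distances were 11.9 kb for MIR518B and 11.5 kb for MIR518E. For 0 of the 9 miRNAs was the other arm of the same hairpin among the named rows.

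**Figure D4:**
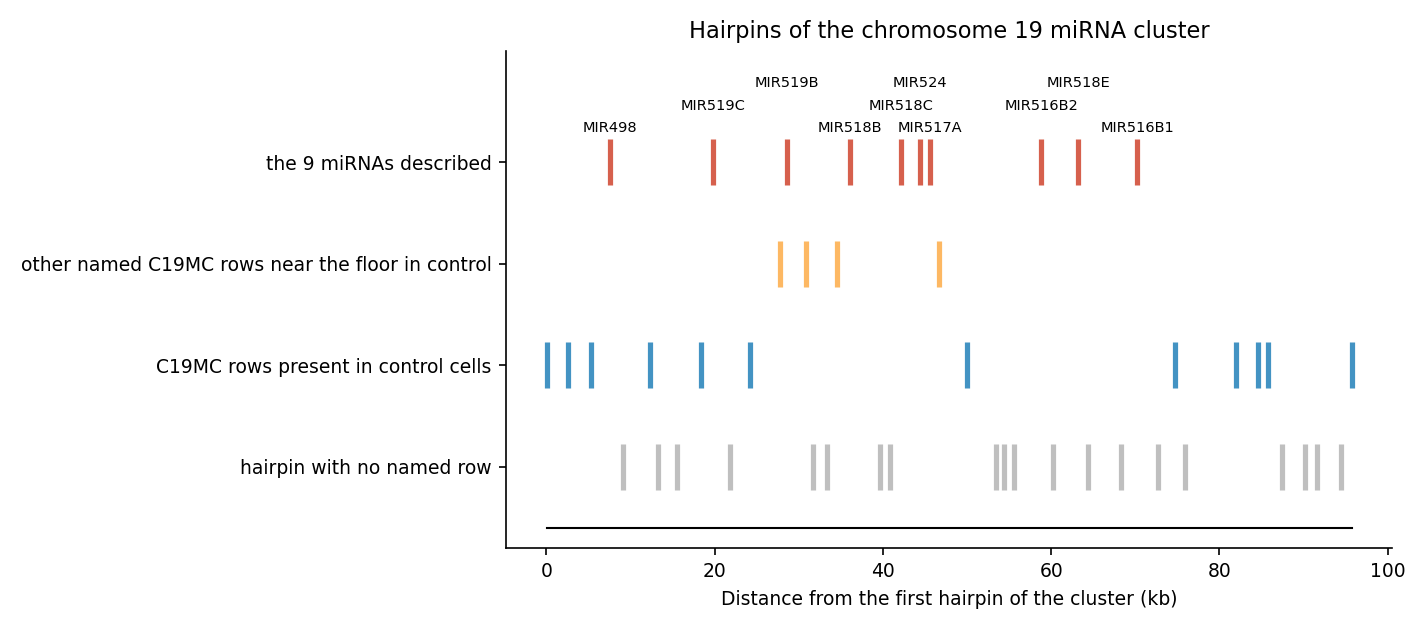
Positions of the 46 annotated C19MC hairpins, as distance in kb from the first one; each tick is 1 hairpin, placed in the row of its class, and MIR515-1 and MIR515-2, whose 5p arm was present and whose 3p arm was near the floor in control cells, are shown as present, while MIR517B, which shares the mature sequence of miR-517a-3p, is drawn without a named row. Member hairpins run from 7.6 to 70.2 kb with hairpins of rows present in control cells on both sides. Every hairpin that can make a row present in control cells is drawn as present, although a row with several hairpins cannot tell them apart.

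The named rows most like the members' mean profile, by Euclidean distance in log2(value + 1) over the 6 libraries, were miR-503 (0.87), miR-130b-3p (0.97), miR-194-5p (1.06), miR-140-5p (1.07) and miR-31-5p (1.09), none of them in C19MC. miR-503 had 16.0, 5.62 and 9.8 in siPRKRA libraries and miR-130b-3p had 11.4, 1.09 and 7.92, both with floor values in control libraries. Of the members, miR-517a-3p (0.56) and miR-498 (0.74) were nearest to the same profile, and miR-518b (3.18) and miR-519b-3p (2.96) were farthest.

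In the authors' deposited table, of the 9 miRNAs, 8 are listed as higher in siPRKRA cells and miR-519b-3p as lower. With all 177 rows of the authors' deposited table ordered from high to low, the fold change is still positive at place 87 (1.03, miR-512-5p). At place 128 of the authors' deposited table it is negative (-1.02, miR-515-5p). The choice of members used this contrast, so nothing is read from their directions. The fold change is the ratio of the log2 levels of the groups, and where the control level is the log2 of a floor that ratio becomes large. In the authors' deposited table it is 8.69 for miR-498, in place 3 of 177, where the ratio of the linear levels (2 to the power of each log2 level) is 5.77, and 8.07 for miR-518b, where that ratio is 13.6. The control level of miR-498 there (0.329) includes a value of 1 in control siRNA replicate 2, below the floor. In the authors' deposited table miR-517a-3p, at the floor in all control libraries (0.533), has 5.29, in place 21. Its siPRKRA level is 2.82, against 2.86 for miR-498. Of the 10 highest fold changes in the authors' deposited table, 8 belong to rows near the floor in all control libraries. The lower call for miR-519b-3p in the authors' deposited table (-1.06) came with floors of 1 to 1.09 in siPRKRA libraries, against 1.32 to 1.53 in control libraries. Across all 198 rows above the floor in at least 1 library, limma on log2(value + 1) called 0 rows (0%) at a Benjamini-Hochberg adjusted p under 0.05, with 34 rows at an unadjusted p under 0.05, and limma-voom called 0 on counts recovered from the values. Without siPRKRA replicate 2 limma called 70 rows, 40 higher and 30 lower in siPRKRA. Since separate cultures are not recorded, these p-values reflect spread between samples that may be technical.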

How the data were processed

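The members, lists and tests were chosen with earlier results of these data known. The authors deposited signal values per probe and sample, and a second table holding log2 values of that signal over 800 miRNA rows; for background rule, scaling probes and software the sources used here give nothing. The authors' deposited table gives p-values, log2 levels and a fold change for 177 named rows; its p-values are not used. Members were found by name there and read by accession in the log2 table. The factor of each library was recovered from the steps between values up to 600 counts, of which 100% were whole within 0.1 after division and removal of the background's fraction. Counts above background are values over that factor, with rows at or below the floor as 0. Values as log2(value + 1) were tested by limma 3.58.1 (R 4.3.3; lmFit, then eBayes with trend), with 1 coefficient for group, over 198 rows above the floor in at least 1 library. On simulated data for siPRKRA against control siRNA over 198 rows with 40 changed by 2 log2 units, it found 99.3% in 20 runs with 38 false calls. The simulated noise was normal and of the same size, the median over rows, in every row and library, with no floor. It therefore does not measure how many changes limma misses in the real values, which have floors and unequal spread. The design's count test was not used, since no column holds counts. Samples were not paired by replicate number, since the labels do not say that equal numbers belong together. Precision: no intervals are printed. The limit of a count of 0 is taken as 3 counts, which covers counting error only and not the unknown subtracted background. The text names the 9 members, C19MC relatives and the 5 named rows nearest to the members' mean profile; C19MC rows beyond these and hairpins were named after their values were seen. Python 3.11.15, numpy 2.4.6, pandas 2.3.3 and matplotlib 3.10.9 were used.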

Additional observations from a re-analysis of the deposited data

How the results depend on the processing

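Detection of the 9 miRNAs depended on the threshold mainly in siPRKRA replicate 2. Above the floor were 6 there and 6 in all 3 siPRKRA libraries; at a value of 5, a value of 10 or 10 counts above background these numbers were 2 and 2, and at 30 units after scaling by the graded control probes 1 and 1, with 1 in siPRKRA replicate 3, against 7 above the floor. In any control library 1 miRNA was above the floor and 0 were at each of these 4 thresholds. With 1 library left out the number above the floor in the remaining siPRKRA libraries was 6 to 7, and in any control library 0 to 1. The median member difference of 1.78 was 4.06 with counts before the factor, 4.1 scaled by the graded control probes, 3.23 scaled by the miRNA total and 3.13 scaled by the mRNA rows, settings that put floor rows at 0. With background added back it was 0.073 for 10 counts (7 members above 0 and 2 below), and the direction turned at 25 counts (-0.54) and 50 counts (-0.90); 10 and 50 counts, and the limit of 3 counts, were chosen after seeing the data. It kept its direction, within the spread of 1.17 (SD, n = 3) between siPRKRA libraries, with pseudocounts of 10 or 0.5, a common floor, or 1 library left out (1.36 to 2.60). Scaling by the graded control probes moved the median of all 198 rows to 1.67. Of 153 comparisons of single members with an alternative, 87 stayed within 1 SD and 66 moved further. limma called 0 of 198 rows; with no filter it called 635 of 800 (24 higher, 611 lower), where 602 rows have floor values throughout, and scaled by the graded control probes 48, all higher. With 1 library left out it called 0 to 70. With replicate number as a block it called 0. Same-numbered samples' deviations correlated at 0.16, -0.12 and -0.069, and those of unlike numbers at -0.20 to 0.22. These correlations cannot decide whether same-numbered samples were handled together, since many rows hold floor values and the labels do not say. edgeR on recovered counts was not run, since the values are counts above a background and not whole reads.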

Other observations

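Outside C19MC, 31 named rows were near the floor in control siRNA cells, and 8 of these exceeded it in each siPRKRA library, named here after their values were seen: let-7c, miR-132-3p, miR-151a-5p, miR-210, miR-484, miR-503, miR-582-5p and miR-1268a. miR-132-3p, a CREB-induced miRNA of neurons, had values of 24.6, 14.3 and 11.2 in siPRKRA replicates 1, 2 and 3, against 1.5, 1.53 and 1.32 in control siRNA replicates 1, 2 and 3. miR-582-5p had 30.1, 13.2 and 12.6 in siPRKRA libraries and the same floor values in control libraries. Like miR-518b, let-7c (13.2, 37.1 and 6.05) and miR-1268a (4.7, 46.9 and 7.92) were highest in siPRKRA replicate 2. miR-7-5p (44.0, 1 and 26.7 in siPRKRA libraries) and miR-425-5p (28.0, 1.09 and 27.6) were higher than every one of the 9 C19MC miRNAs in siPRKRA replicates 1 and 3 and were not above the floor in replicate 2. These rows entered the named table through the same values, so their presence is a description.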
